A study of Mus musculus with 52 samples.

Results

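The genes described here are 5 transcripts of sterol handling that are textbook targets of the liver X receptors: Abca1, Abcg1, Abcg5, Abcg8 and Mylip. They were taken by symbol from a table of 24116 genes, and all 5 were found. The samples were intestinal organoids, epithelial structures grown from single cells, of wild type C57BL/6 mice aged 8 weeks. The labels give 2 organoid cultures, from 2 male littermates, with RNA of each purified in duplicate and made into mRNA sequencing libraries. Each group therefore held 4 libraries of 2 cultures.

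A group was a day with a treatment. Organoids received the solvent DMSO, 10 µM all-trans retinoic acid (atRA), or an RXR antagonist (RXRi) at 5 µM, and were collected on days 1, 3, 4 and 5. A group at day 0 is labelled DMSO, which makes 13 groups. Treatment was given at day 0 and again at day 3. In every group of days 1 and 3, the ENR medium (EGF, Noggin, R-spondin) also held 20% Wnt3a-conditioned medium, 10 µM of the ROCK inhibitor Y-27632 and 3 µM of the GSK3 inhibitor CHIR99021, and plain ENR followed from day 3. Each RNA came from 3 pooled wells seeded with 50000 cells. The RXR antagonist is not named further in the labels. The comparisons ask how each gene differs between either drug and DMSO on the same day, and how it moves with culture time. Comparisons of days 4 and 5 with earlier days also span the change of medium and the renewed treatment. These cannot be told apart from culture time.

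Liver X receptors bind oxysterols and act on DNA as heterodimers with the retinoid X receptor (RXR), which is also the partner of the retinoic acid receptors. ABCG5 and ABCG8 form an obligate heterodimer at the apical membrane of enterocytes that pumps cholesterol and plant sterols back into the gut lumen. ABCA1 and ABCG1 move cellular cholesterol to lipoprotein acceptors, ABCA1 to lipid-poor apolipoprotein A-I and ABCG1 to high-density lipoprotein. Mylip encodes IDOL, a ubiquitin ligase that sends lipoprotein receptors to the lysosome.

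Abcg5 and Abcg8 lie head to head on chromosome 17. In the GENCODE annotation of mm10, Abcg5 spans chr17:84658234-84683011 on the minus strand and Abcg8 chr17:84676302-84700333 on the plus strand. RefSeq promoter windows, from 250 bases before to 50 after a gene start (build GRCm38.p6), were found for 4 of the 5 genes. No window was matched for Abcg1, which spans chr17:31057675-31117988 (plus strand). The stretch between the divergent starts of the pair is shown because both transcripts move together in all that follows. Capitals mark the letters AGATAA read on the other strand, the core of a motif bound by GATA factors.
Abcg5 to Abcg8, chr17:84683012-84683120, plus strand: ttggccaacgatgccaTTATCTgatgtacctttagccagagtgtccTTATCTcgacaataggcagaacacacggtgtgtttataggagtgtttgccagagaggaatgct
This 109-base stretch held 2 matches. The 300-base windows of Abcg5 and Abcg8, which overlap, each held 3 matches over both strands. Of 32851 mouse promoter windows 0.107% held 3 or more and 11.2% at least 1. A further window of Abcg8 in the table, chr17:84676052-84676351, at a start inside Abcg5, held 0. A direct repeat of 2 copies of AGGTCA spaced by 4 bases is the form that liver X receptors bind. With both strands searched, its best match in these windows had 4 mismatches of 12, which 76.9% of all promoters equal or better.

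Abca1 spans chr4:53030787-53159895 on the minus strand. Its window held the closest match to that repeat among the members, with 3 mismatches of 12, which 21.9% of all promoters equal or better. The match lies 67 to 52 bases before the gene start and is shown in capitals, for comparison with the pair above.
Abca1, chr4:53159940-53159969, minus strand: cagcgttTGACCGGTAGTAACCCcggcgct
The same window held 1 match to CACGTG, an E-box, as did 7.15% of promoters. The window of Mylip (chr13:45389742-45412022, plus strand) reached no closer than 5 mismatches, which 99.8% of promoters equal or better. A match of letters is a description and does not show a bound site.

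Values are RPKM, reads scaled to gene length and to the library's total reads. Total reads recovered from them ran from 12895667 to 26206028 in 51 libraries, with a median of 19686970. The remaining library, a day 1 DMSO duplicate of culture 1, held 12443 reads and was left out, so that culture has 1 library in that group. Summed RPKM of 10 epithelial markers ran from 5117 to 26460 over the libraries. Of 12 leukocyte markers, C1qb and C1qc were listed at 0 in all libraries and 8 stayed below 1 RPKM, the pan-leukocyte marker Ptprc among them (highest 0.0139 RPKM). Of 12 stromal and endothelial markers, Col3a1, Dcn and Lum were listed at 0 in all libraries and 11 stayed below 1 RPKM. The summed leukocyte list ran from 7.52 to 25.4 RPKM and the stromal list from 0.529 to 1.91.

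Abcg5 and Abcg8, the apical sterol pump, were the most abundant of the 5 in every group with DMSO or atRA. In DMSO both fell from day 0 to day 1, then rose to day 3 and again to day 4. Abcg5 measured 38.8 and 37.8 RPKM in culture 1 and 44.9 and 46.3 in culture 2 at day 0. On day 1 of DMSO it measured 7.61 in the library of culture 1 and 7.74 and 8.61 in culture 2. The day 1 libraries all lay below the day 0 libraries, and the mean was 5.31 times lower. On day 3 Abcg5 stood at 17.7, 16.6, 16.6 and 18.6 RPKM, the first pair from culture 1. On day 4 it reached 49.5 and 42.4 in culture 1 and 59.9 and 54.0 in culture 2. On day 5 it was 60.3 and 61.0 against 79.5 and 74.8. From day 3 on, each day's DMSO libraries lay above those of the day before, and culture 2 was the higher culture on days 4 and 5.

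Abcg8 traced the same course at a somewhat lower level. It measured 39.1, 38.7, 40.9 and 42.7 RPKM at day 0, and 4.97, 5.22 and 6.24 on day 1. On day 3 of DMSO it was 11.1, 12.6, 10.8 and 12.03, and on day 4 it was 31.5 and 28.6 in culture 1 and 38.7 and 37.2 in culture 2. Day 5 gave 43.0 and 40.7 in culture 1 and 52.2 and 52.0 in culture 2. Day 5 thus overlapped day 0 for Abcg8, while for Abcg5 every day 5 library lay above every day 0 library.

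In limma on log2(RPKM + 1), with Benjamini-Hochberg adjustment over 12443 tested genes, 4 of the 5 members could be tested: Abcg1 stayed below the filter of 1 RPKM in 4 libraries. From day 0 to day 1, Abcg5 and Abcg8 fell, where 35.6% of all tested genes did. The log2 fold change was -2.71 ± 0.19 for Abcg8 (SE, limma adjusted p = 4.6e-09) and -2.27 ± 0.23 for Abcg5 (adjusted p = 3.4e-07). Mylip, tested only through its high day 0 libraries, is described later. From day 1 to day 3, Abcg5 rose by 1.05 ± 0.23 (limma adjusted p = 4.9e-03) and Abcg8 by 0.99 ± 0.19 (adjusted p = 1.4e-03), where 6.19% of all genes rose and 6.49% fell. Both calls were lost when the shallow library was kept (0.55 and 0.52, adjusted p = 0.16 and 0.12). From day 3 to day 4 Abcg5 rose by 1.50 ± 0.23 and Abcg8 by 1.46 ± 0.19 (limma adjusted p = 3.9e-05 and 7.3e-06), where 20.5% of all genes rose. No member passed from day 4 to day 5, a step with few calls overall (3.44% of genes in either direction), where Abcg5 differed by 0.41 and Abcg8 by 0.46.

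Day 5 of DMSO against day 0 gave 0.70 ± 0.23 for Abcg5 (limma adjusted p = 0.012), a rise, where 18.7% of all tested genes rose and 51.1% fell. Abcg8 differed by 0.21 ± 0.19 and did not pass (adjusted p = 0.33, 95% interval -0.18 to 0.60). The median of all tested genes fell by 0.31 in this comparison. With median-of-ratios scaling the values were 1.07 for Abcg5 and 0.58 for Abcg8, which then passed (adjusted p = 0.020), and without culture 1 at day 0 or culture 2 at day 5 Abcg5 gave 0.57 and 0.53 and did not pass.

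Markers of absorptive enterocytes also changed over the DMSO series. Of all tested genes 35.6% fell from day 0 to day 1 and 20.5% rose from day 3 to day 4. From day 1 to day 3, 6.49% fell and 6.19% rose. Of 20 fixed markers, 13 fell and 2 rose from day 0 to day 1 of DMSO, 7 fell and 2 rose from day 1 to day 3, and 19 rose and 0 fell from day 3 to day 4 (median 3.41, against -0.10 over all tested genes). Their summed RPKM ran from 1809 to 2231 at day 0, from 584 to 757 on day 1, from 408 to 526 on day 3, from 6529 to 7499 on day 4 and from 17298 to 22804 on day 5. Between days 1 and 3 of DMSO the pair rose while the marker sum was lower in every day 3 library. In bulk RNA, fewer cells of a type and less RNA per cell cannot be told apart. The part of enterocyte content in the pair's levels was not tested.

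**Figure D1:**
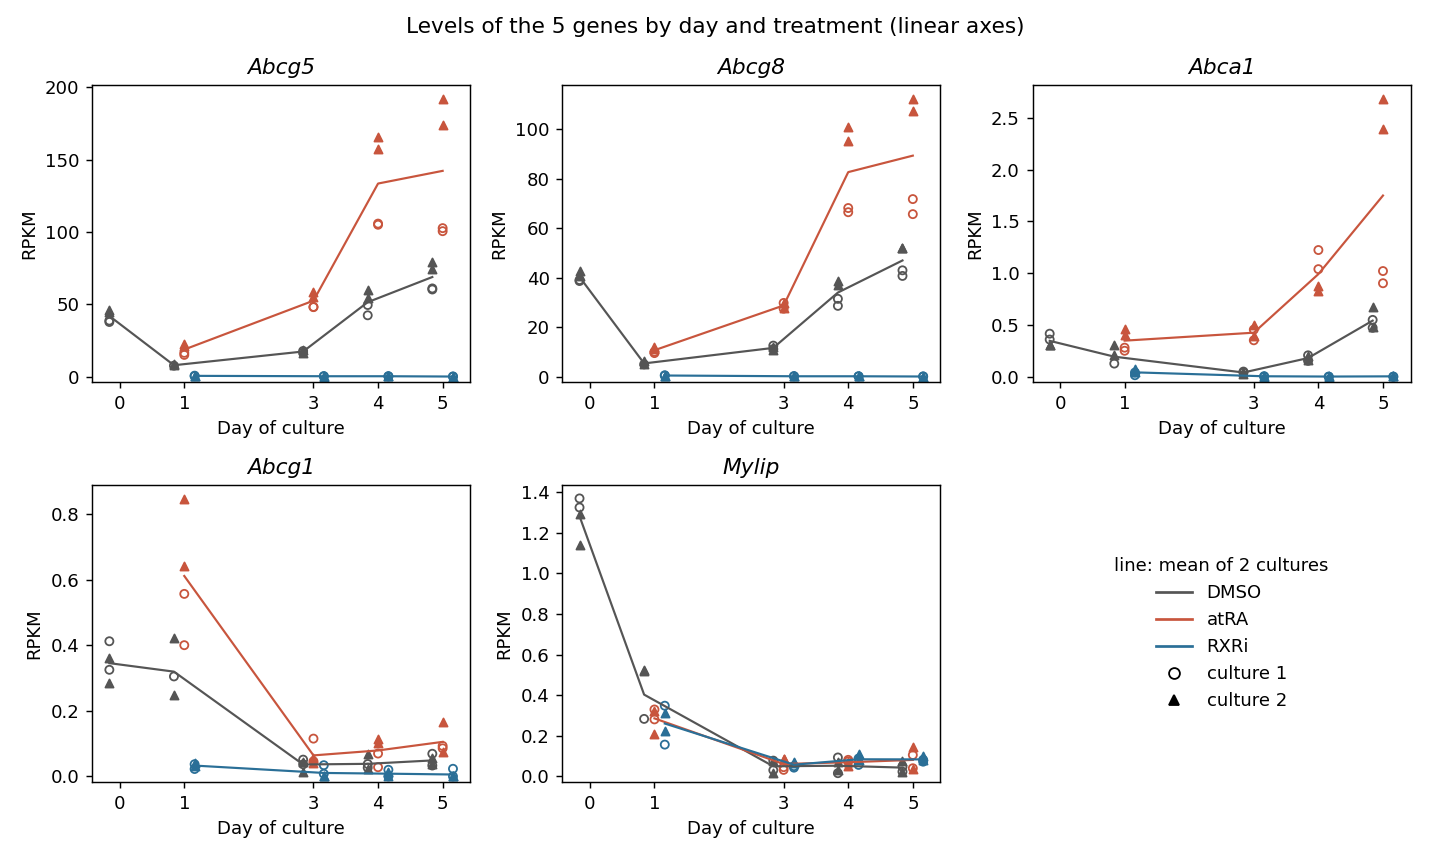
RPKM of each gene (linear axes, each with its own scale) by day of culture. Points are libraries, open circles culture 1 and filled triangles culture 2, and lines join the means of the 2 cultures. Abcg5 and Abcg8 are highest with atRA on days 4 and 5 and near 0 with RXRi on each day, Abcg1 and Mylip are low from day 3 on, and at day 5 the Abca1 libraries of culture 2 with atRA stand above those of culture 1.

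Both subunits of the sterol pump rose with retinoic acid on each of the 4 days. Abcg5 measured 15.0 and 16.5 RPKM in culture 1 and 20.9 and 22.5 in culture 2 on day 1 of atRA, 2.37 times the DMSO mean. On day 3 it measured 48.2, 48.1, 55.0 and 58.8, or 3.02 times DMSO. No atRA library overlapped a DMSO library of its day. On day 4 Abcg5 reached 105 and 106 in culture 1 and 166 and 158 in culture 2, and on day 5 it was 101 and 103 against 192 and 174. These are 2.59 and 2.07 times the DMSO means. The 2 cultures stand apart here: within culture 1 the day 5 ratio of atRA to DMSO was 1.68, and within culture 2 it was 2.37.

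Abcg8 with atRA measured 9.53, 10.0, 12 and 11.2 RPKM on day 1 and 29.8, 27.5, 27.9 and 29.95 on day 3. It reached 66.5 and 68.2 in culture 1 and 101 and 95.4 in culture 2 on day 4, then 65.7 and 71.8 against 112 and 108 on day 5. The ratios to DMSO were 2.00, 2.48, 2.43 and 1.90 on days 1, 3, 4 and 5, with no overlap between the groups' libraries. The ratio at day 5 was 1.64 within culture 1 and 2.11 within culture 2.

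On the log2(RPKM + 1) scale Abcg5 rose with atRA by 1.13 ± 0.23, 1.54 ± 0.23, 1.34 ± 0.23 and 0.98 ± 0.23 on days 1, 3, 4 and 5 (limma adjusted p = 7.4e-03, 2.0e-04, 1.1e-03 and 0.016). Abcg8 rose by 0.88, 1.24, 1.24 and 0.88, each ± 0.19 (limma adjusted p = 0.010, 2.2e-04, 3.5e-04 and 8.6e-03). So both subunits rose on each day, where 1.93%, 4.32%, 3.58% and 2.14% of all tested genes rose on days 1, 3, 4 and 5. Abca1, tested only through its high atRA libraries of days 4 and 5, is described later. Over the mean of the days, Abcg5 rose by 1.25 ± 0.11 (limma adjusted p = 4.2e-07), rank 65 from the top of 12443 genes, and Abcg8 by 1.06 ± 0.09 (adjusted p = 2.5e-07), rank 92. In that mean, 7.98% of all genes rose and 15.0% fell. The effects on day 5 and day 1 differed by -0.15 for Abcg5 and 0.00 for Abcg8, and those on day 5 and day 3 by -0.55 and -0.36. No member passed in either of these tests of the difference (1.15% and 2.64% of genes did). Without culture 2 of atRA on day 5, Abcg5 gave -0.97 for day 5 minus day 3 and passed (limma adjusted p = 0.039).

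When 1 culture of a group is left out, the other group keeps both, so like-numbered cultures are no longer set against each other. The calls of day 1 and day 5 were lost under some settings. Those of day 1 were lost without culture 1 of DMSO (Abcg5 1.09, adjusted p = 0.084, and Abcg8 0.79, adjusted p = 0.14), without culture 2 of atRA (0.91 and 0.77) and with the shallow library kept (0.64 and 0.40), which moved both by over 1.5 times. With a pseudocount of 5 the day 1 call of Abcg8 was also lost (0.60, limma adjusted p = 0.069). The day 5 calls were lost without culture 1 of DMSO (0.81 and 0.73), without culture 2 of atRA (0.56 and 0.55, moving both by over 1.5 times) and with the shallow library kept (0.98 and 0.88). The calls of days 3 and 4 and of the mean passed under each of these settings.

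Enterocyte markers were higher with atRA in part. Of the 20, 3 rose on day 1, 15 on day 3 and 12 on day 4 with 0 falling, and 2 rose and 1 fell on day 5. The medians were 0.13, 1.92, 0.96 and -0.11. Of all tested genes 1.93%, 4.32%, 3.58% and 2.14% rose on days 1, 3, 4 and 5. The markers' summed RPKM with atRA ran from 2987 to 4310, 8797 to 9748, 33393 to 36356 and 25831 to 46842 on days 1, 3, 4 and 5, above every DMSO library of the same day. Their part in the rise of the pair was not tested.

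With the RXR antagonist both transcripts of the pump were close to 0. On day 1 Abcg5 measured 0.333 and 0.678 RPKM in culture 1 and 0.660 and 0.543 in culture 2, between 17 and 31 reads a library. On day 3 it measured 0.313, 0.320, 0.0843 and 0.445, and on day 4 it was 0.280, 0.291, 0.170 and 0.391. On day 5 the 4 libraries held 0.0598, 0.121, 0.0696 and 0.0681 RPKM, from 2, 6, 4 and 4 reads. Each RXRi library lay far below every DMSO library of its day. The DMSO means were 14.3, 59.8, 182 and 865 times higher on days 1, 3, 4 and 5. The counting interval of the day 5 ratio, on 16 reads with RXRi, ran from 526 to 1497 (exact, 95%, counting error only).

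Abcg8 showed the same loss. It measured 0.415, 0.561, 0.411 and 0.465 RPKM on day 1, 0.175, 0.206, 0.0813 and 0.177 on day 3, and 0.135, 0.164, 0.164 and 0.142 on day 4. On day 5 it was 0.0962, 0.0648, 0.0336 and 0.0438, from 3 to 5 reads a library. DMSO stood 11.6, 72.8, 225 and 789 times higher. The gap widened from both sides: from day 1 to day 5 the mean of Abcg5 went from 7.90 to 68.9 RPKM in DMSO and from 0.553 to 0.0796 with RXRi.

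With RXRi Abcg5 fell on each day, with log2(RPKM + 1) changes of -2.52, -3.84, -5.35 and -6.01 on days 1, 3, 4 and 5, each ± 0.23 (limma adjusted p = 5.3e-07, 8.2e-10, 3.5e-12 and 4.9e-13). Abcg8 changed by -2.11, -3.44, -4.92 and -5.49, each ± 0.19 (limma adjusted p = 3.7e-07, 2.2e-10, 6.6e-13 and 1.1e-13). So 2 of the 4 tested members fell on days 1, 3 and 4 and 3 of 4 on day 5, where 9.93%, 25.4%, 37.0% and 35.1% of all tested genes fell. Over the mean of the days, Abcg5 fell by 4.43 ± 0.11 (limma adjusted p = 1.1e-15), rank 39 from the bottom of 12443 genes, and the change of Abcg8 was -3.99 ± 0.09 (adjusted p = 2.9e-16), rank 65. In that mean, 42.8% of all genes fell and 30.1% rose.

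The gap to DMSO widened with time on the log2(RPKM + 1) scale. With RXRi both genes were below 1 RPKM in each library, where this scale leaves little room to fall. The widening therefore mostly follows the rise in DMSO, where the mean of Abcg5 was 7.90 RPKM on day 1 and 68.9 on day 5. The RXRi effect on day 5 minus that on day 1 was -3.48 ± 0.32 for Abcg5 and -3.38 ± 0.26 for Abcg8 (limma adjusted p = 2.4e-07 and 3.0e-08), where 23.6% of genes were lower in this test. Day 5 minus day 3 gave -2.17 and -2.05 (limma adjusted p = 7.6e-05 and 1.7e-05), where 16.0% were lower. None of these calls, nor those of single days, was lost under the alternatives run.

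Enterocyte markers fell with RXRi as well, 12 of 20 on day 1, 12 on day 3 (with 1 rising), 18 on day 4 and 19 on day 5. Of all tested genes 9.93%, 25.4%, 37.0% and 35.1% fell on these days. The markers had medians of -1.06, -1.13, -4.16 and -5.88. Their summed RPKM with RXRi ran from 194 to 231, 128 to 150, 632 to 938 and 426 to 577. On the log2(RPKM + 1) scale Abcg5 and Abcg8 lay below those medians on days 1, 3 and 4. On day 5 the median lay between Abcg5 and Abcg8. This scale limits the fall of low genes, and the markers ranged widely in level. Their median RPKM over the libraries was 0.0626 for Lct and 287 for Fabp1. So these values are not a comparison of folds. Of 10 epithelial markers, 5 rose and 5 fell with RXRi over the days (median -0.03), where 30.1% of all tested genes rose and 42.8% fell. The sum of these markers, between 14820 and 26460 RPKM, was higher than in every DMSO library of the same day. A few genes weigh most in this sum. Over all libraries Krt19 and Krt8 reached 10516 and 6904 RPKM, while Cdx1 and Cdx2 reached 134 and 141. The part of enterocyte content in the loss was not tested.

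**Figure D2:**
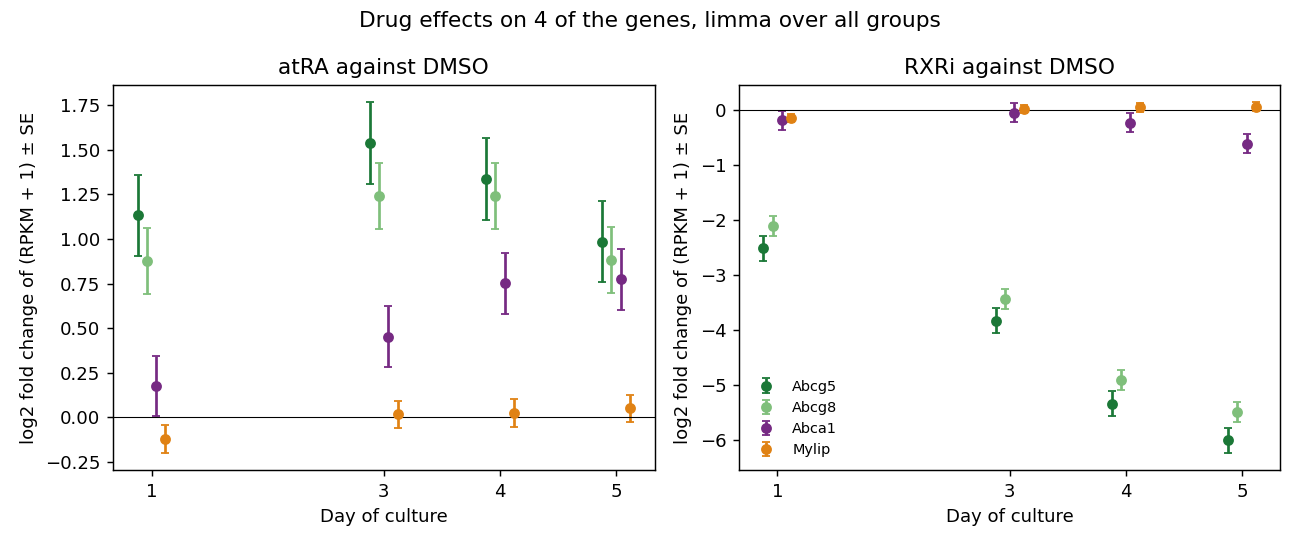
Log2 fold change of (RPKM + 1) against DMSO by day, with the standard error of the limma fit over 26 culture means, for atRA (left) and RXRi (right). The vertical scales differ. Abcg5 and Abcg8 lie between 0.88 and 1.54 with atRA and reach -6.01 and -5.49 with RXRi. Mylip lies near 0, where its few reads from day 3 on leave this scale little room to move.

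Between the drugs, atRA over RXRi averaged 5.68 ± 0.11 for Abcg5 and 5.05 ± 0.09 for Abcg8 over the days (limma adjusted p = 2.8e-17 and 9.4e-18), ranks 20 and 45 from the top. Of all tested genes 40.8% were higher with atRA. Abca1 differed by 0.81 ± 0.08 (limma adjusted p = 1.3e-07), a value that its way through the filter favours. Mylip differed by 0.00 ± 0.04 (limma adjusted p = 0.95), on a scale that its few reads from day 3 on hold near 0. In limma voom on the recovered reads, Mylip differed by -0.03 ± 0.22 (adjusted p = 0.90). On day 5 the mean level of Abcg5 with atRA was 1788 times that with RXRi, and that of Abcg8 1500 times. These comparisons and those with DMSO share samples.

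Abcg5 and Abcg8 moved nearly as one. Their log2 levels correlated across 26 culture means with Pearson's r = 0.997, a description over points that share cultures and libraries. The ratio of Abcg5 to Abcg8 RPKM was 1.04 ± 0.08 at day 0 (SD, n = 2 cultures), with 0.992 and 0.977 in culture 1 and 1.10 and 1.09 in culture 2. In DMSO from day 1 on it was higher, 1.48, 1.50, 1.51 and 1.46 on days 1, 3, 4 and 5, and no library of these groups lay below 1.32. With atRA it was 1.75, 1.82, 1.61 and 1.57 (SD 0.06 to 0.20). The atRA libraries lay above the DMSO libraries of their day on days 1 and 3 (1.58 to 2.02 against 1.38 to 1.53, and 1.62 to 1.97 against 1.32 to 1.59) and overlapped them on days 4 and 5. These ratios were not tested. With RXRi single libraries ran from 0.622 to 2.75, on few reads. The genes share 82 exon bases, where an Abcg8 transcript starts inside Abcg5, and whether the counting used strand is not given in the sources used here.

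**Figure D3:**
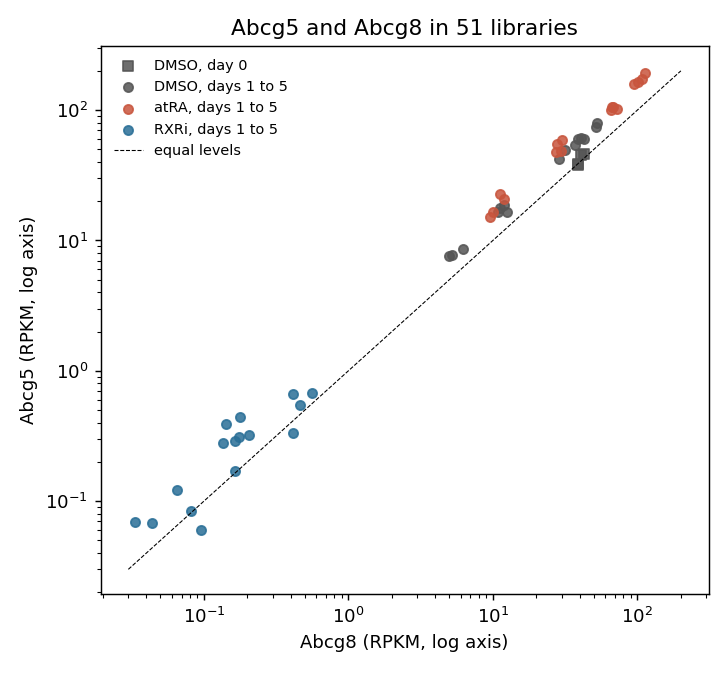
Abcg5 against Abcg8 in each of 51 libraries (RPKM, both axes logarithmic). Grey marks DMSO (squares for day 0), red atRA and blue RXRi, and the dashed line marks equal levels. The 4 day 0 libraries sit at the line (ratios 0.977 to 1.10), and DMSO and atRA libraries of later days sit above it.

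Abca1, which exports cholesterol to apolipoprotein A-I at the basolateral side of enterocytes, was scarce, and more abundant with atRA. It measured 0.415, 0.358, 0.301 and 0.309 RPKM at day 0, from 54 to 73 reads a library. In DMSO it was 0.126, 0.310 and 0.209 on day 1 and 0.0402, 0.0489, 0.0405 and 0.0304 on day 3. It then stood at 0.206, 0.153, 0.201 and 0.159 on day 4 and 0.548, 0.472, 0.476 and 0.668 on day 5. The day 3 libraries were the lowest and the day 5 libraries the highest of the DMSO series. With atRA Abca1 measured 0.280, 0.250, 0.458 and 0.403 on day 1 and 0.351, 0.454, 0.394 and 0.499 on day 3. It reached 1.04 and 1.22 in culture 1 and 0.827 and 0.874 in culture 2 on day 4, and 1.02 and 0.902 against 2.68 and 2.39 on day 5. The atRA libraries overlapped DMSO on day 1 and lay above it on days 3, 4 and 5, where the means were 10.6, 5.51 and 3.23 times DMSO. The day 5 ratio was 1.88 within culture 1 and 4.43 within culture 2.

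The log2(RPKM + 1) scale compresses such low values. On it Abca1 rose with atRA by 0.75 ± 0.17 on day 4 and 0.77 ± 0.17 on day 5 (limma adjusted p = 9.0e-03 and 0.011). It differed by 0.18 on day 1 and 0.45 on day 3 (adjusted p = 0.91 and 0.13). Over the days it rose by 0.54 ± 0.08 (adjusted p = 1.6e-04). It passed the filter only through 5 atRA libraries of days 4 and 5, so this set of tested genes favours the difference, and with no filter the mean gave the same value with an adjusted p of 3.6e-04. In limma voom on the recovered reads (14636 genes), Abca1 rose by 3.37 ± 0.77 on day 3 (adjusted p = 8.2e-03), where 3.88% of genes rose. The day 4 call was lost without culture 1 of DMSO (0.75) or of atRA (0.65), and the day 5 call without culture 1 of DMSO (0.75).

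With RXRi Abca1 was almost unread. It measured 0.0138, 0.0398, 0.0700 and 0.0425 RPKM on day 1, from 3 to 14 reads a library. The 4 libraries of day 3 held 3 reads in all, those of day 4 held 1 read and those of day 5 held 3 reads. The rate of reads in DMSO was 11.4 times higher on day 3 (counting interval 3.61 to 57.6), 175 times on day 4 (31.0 to 6972) and 154 times on day 5 (52.1 to 749). On the log2(RPKM + 1) scale it fell by 0.62 ± 0.17 on day 5 (limma adjusted p = 4.2e-03) and by 0.27 ± 0.08 over the days (adjusted p = 7.8e-03), and differed by -0.19, -0.05 and -0.24 on days 1, 3 and 4. In limma voom on reads the changes were -6.67 on day 4, -7.34 on day 5 and -4.88 over the days (adjusted p = 1.6e-03, 3.1e-04 and 5.6e-06), where 36.1%, 33.0% and 41.0% of genes fell. Days 1 and 3 did not pass there (-2.35 and -3.17, limma voom adjusted p = 0.090 and 0.093). With a pseudocount of 5 the day 5 value was -0.15 and did not pass. Without culture 1 of atRA on day 5, 1 culture remained in that group. The atRA effect on Abca1, day 5 minus days 1 and 3, was then 1.02 and 0.75. With both cultures it was 0.60 and 0.32 and did not pass. The sign against day 3 depended on the scale. Day 5 minus day 3 was -0.51 with a pseudocount of 0.1 and -1.85 in limma voom on reads, and neither passed.

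Abcg1, which passes cholesterol to high-density lipoprotein and is best known from macrophages, followed another course. It measured 0.325, 0.412, 0.284 and 0.361 RPKM at day 0 and 0.305, 0.421 and 0.247 on day 1 of DMSO, from 26 to 49 reads a library. On days 3, 4 and 5 of DMSO its means were 0.0364, 0.0384 and 0.0488, from 2 to 8 reads a library, all below the earlier days. With atRA it measured 0.400, 0.557, 0.848 and 0.641 on day 1, the highest level in the series, which overlapped DMSO. On days 3, 4 and 5 the atRA means were 0.0641, 0.0792 and 0.105, overlapping DMSO on days 3 and 4. With RXRi it measured 0.0226, 0.0372, 0.0327 and 0.0397 on day 1, all below DMSO, and 5 of the 12 later libraries held at least 1 read.

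In limma voom on reads, Abcg1 fell by 3.14 ± 0.59 from day 1 to day 3 of DMSO (adjusted p = 1.2e-03), where 8.18% of genes fell. From day 0 to day 5 the change was -2.73 ± 0.60 (limma adjusted p = 6.6e-04), where 49.5% fell. With RXRi the change was -3.26 ± 0.63 on day 1 (limma adjusted p = 1.4e-03), where 8.19% fell, -3.45 ± 1.02 on day 5 (adjusted p = 7.1e-03) and -2.77 ± 0.44 over the days (adjusted p = 1.9e-05). Days 3 and 4 did not pass (-2.38 and -2.001). It rose with atRA by 0.91 ± 0.30 over the days (adjusted p = 0.039), where 7.30% rose, and passed on no single day. On the log2(RPKM + 1) scale with no filter, Abcg1 passed with atRA on day 1 (0.28, limma adjusted p = 4.8e-03) and over the days (0.11, adjusted p = 5.8e-03), and with RXRi on day 1 (-0.35) and over the days (-0.12), while the RXRi value of day 5 did not pass (-0.06, adjusted p = 0.39). Read rates in DMSO were 10.1 times those with RXRi on day 1 (counting interval 5.87 to 18.7) and 8.45 times on day 5 (2.44 to 45.0, on 3 reads). Among the 12 leukocyte markers, Cd14 reached 18.4, Cd68 7.63, Mrc1 3.86 and Itgam 3.61 RPKM over the libraries, while C1qb and C1qc were at 0. The list's sum ran from 7.52 to 9.63 at day 0, from 15.2 to 18.4 on day 1 of DMSO, from 23.3 to 25.4 on day 3 of DMSO and from 10.4 to 11.8 on day 1 of RXRi. Their part in the level of Abcg1 was not tested.

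Mylip, the gene of the ubiquitin ligase IDOL, left the series early. It measured 1.37, 1.32, 1.14 and 1.29 RPKM at day 0, from 58 to 70 reads, and 0.283, 0.525 and 0.520 on day 1 of DMSO. From day 3 on it lay between 0.0155 and 0.144 RPKM in all libraries, on 1 to 9 reads each. The 4 day 0 libraries were the only ones above 1 RPKM, and Mylip passed the filter through them alone. It fell by 0.71 ± 0.08 from day 0 to day 1 (limma adjusted p = 8.6e-07), by 0.41 ± 0.08 from day 1 to day 3 (adjusted p = 1.5e-03) and by 1.13 ± 0.08 from day 0 to day 5 (adjusted p = 4.0e-09). This filter favours a fall from day 0. With no filter the 3 changes had the same size, with limma adjusted p of 6.5e-08, 1.0e-04 and 3.6e-10. In RPKM the mean at day 0 was 29.6 times that at day 5 of DMSO.

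Neither drug gave a call for Mylip. Day 1 levels were 0.281, 0.329, 0.209 and 0.324 RPKM with atRA and 0.348, 0.157, 0.224 and 0.313 with RXRi, both overlapping DMSO. The difference over the days was -0.01 ± 0.04 with atRA and -0.01 ± 0.04 with RXRi (limma adjusted p = 0.91 and 0.81, 95% intervals -0.09 to 0.07 for both). On reads, limma voom gave 0.23 ± 0.23 and 0.26 ± 0.23 (adjusted p = 0.53 and 0.32), and neither passed. Levels after day 1 rest on few reads, so the log2(RPKM + 1) differences of those days are held near 0. In limma voom the day 5 values of Mylip were 0.89 ± 0.52 with each drug and did not pass. Without culture 1 of DMSO, the day 1 value with RXRi was -0.28 and passed (adjusted p = 0.034).

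Ordered by mean level over the 13 groups, Abcg5 and Abcg8 were both highest with atRA on days 5 and 4 (142 ± 57.5 and 134 ± 39.7 RPKM for Abcg5, SD, n = 2 cultures), which did not differ beyond their spread. DMSO on days 5 and 4, day 0 and atRA on day 3 came next and the 4 RXRi groups last. For both genes 6 of the 12 steps between neighbours in this order lay within the sum of the neighbours' SDs. Abca1 was likewise highest with atRA on day 5 (1.75 ± 1.11) and day 4 (0.990 ± 0.198), and 7 of its 12 steps lay within the spread. The top groups of Abcg1 were atRA on day 1 (0.612), day 0 (0.346) and DMSO on day 1 (0.320), and those of Mylip were day 0 (1.28) and the 3 groups of day 1, with 9 and 10 of 12 steps within the spread. Across 26 culture means, Abca1 correlated with Abcg5 at r = 0.782 and with Abcg1 at 0.177, and Abcg1 with Mylip at 0.617. These are descriptions over shared cultures.

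The genes whose log2(RPKM + 1) levels ran closest to each member over the 26 culture means were named from 11921 tested genes. The members, genes without a symbol, and symbols starting with Gm and a digit or LOC, or ending in Rik, were left out. For Abcg5 these were Trim31 (r = 0.989), Ms4a10, Btnl5-ps, Ces2e and H2-T3, and for Abcg8 Btnl5-ps (0.990), H2-T3 (0.990), Casp1, Mcoln2 and Cd302. Abca1 ran closest to Tmem252 (0.947), Acot3, Npl, Eci3 and Rab30. Abcg1 ran closest to Alox15 (0.962), Cplx1, Rprml, Krt85 and Stac, and Mylip to Nkd1 (0.979), Arc, Nuak1, Pou6f1 and Cd1d2. Btnl5-ps and H2-T3 thus appear for both subunits of the pump.

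The receptors themselves differed in their course. Of 5 receptor genes, Rxrg was near 0 and 4 were tested. With RXRi over the days 3 fell and 0 rose, where 42.8% of all tested genes fell and 30.1% rose. With atRA 0 passed over the days, and 1 was called lower on day 5. Nr1h3, encoding LXRα, fell by 2.00 ± 0.21 (limma adjusted p = 2.3e-07), Rxrb by 0.43 and Rxra by 0.28, and Nr1h2, encoding LXRβ, differed by 0.10 (adjusted p = 0.080). Nr1h3 stood at 12.8 RPKM at day 0 and 4.55 on day 1 of DMSO, and with RXRi at 1.75, 0.895, 0.607 and 0.345 on days 1, 3, 4 and 5. Its cultures parted from day 4 on: in DMSO of day 5 it measured 4.48 in culture 1 and 13.4 in culture 2, and with atRA 5.56 and 14.3. Culture 2 was higher in Abcg5 and Abcg8 in DMSO and atRA on days 4 and 5, and in Abca1 with atRA on day 5. On day 4 Abca1 with atRA went the other way, 1.13 RPKM in culture 1 and 0.850 in culture 2. In DMSO of day 4 it was alike, 0.179 and 0.180. A link to Nr1h3 was not tested. Nr1h2 ran from 15.7 to 31.0 RPKM over all libraries.

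Of 16 other known targets of the liver X receptors, 12 were tested. With RXRi over the days 9 fell and 1 rose, where 42.8% of all tested genes fell and 30.1% rose (median -0.69, against -0.07 over all tested genes). Apoc2, an activator of lipoprotein lipase, fell by 4.18, Mlxipl, encoding the glucose-sensing factor ChREBP, by 3.44, the fatty acid desaturase Scd1 by 2.68 and Rnf145, a ubiquitin ligase of sterol control, by 0.93. Arl4c, a small GTPase, rose by 1.52. With atRA over the days 6 rose and 1 fell, where 7.98% of all genes rose and 15.0% fell (median 0.22, against -0.04). On days 1, 3, 4 and 5, 2, 3, 5 and 2 of them rose. Apoc2 rose by 1.59, Scd1 by 1.35 and the phospholipid-remodelling enzyme Lpcat3 by 0.93, and Arl4c fell by 0.95 (limma adjusted p of those named at most 6.2e-06).

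Among the lipoprotein receptors that IDOL acts on, Vldlr, which takes up triglyceride-rich lipoproteins, and Lrp8, a reelin receptor, rose with RXRi over the days, by 1.78 ± 0.20 and 0.18 ± 0.06 (limma adjusted p = 4.7e-07 and 0.013). With atRA they differed by 0.35 and -0.01 and did not pass (adjusted p = 0.23 and 0.94).

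Genes that bring sterol in and load it on lipoproteins fell with RXRi. Of 17, 13 fell and 3 rose over the days, where 42.8% of all tested genes fell and 30.1% rose (median -0.78, against -0.07 over all tested genes). They include Npc1l1, the apical cholesterol importer, at -3.51 ± 0.08, Mttp, which lipidates chylomicrons, at -4.42 ± 0.08, Apoa1 at -5.25 ± 0.12 and the sterol transfer gene Gramd1b at -1.40 (limma adjusted p of each at most 2.8e-12). Mttp, Apoa1 and Apoa4 are also on the enterocyte list. With atRA 4 rose (Apoa4, Apoa1, Mttp and the lysosomal lipase Lipa, by 1.49, 1.45, 1.06 and 0.67) and 3 fell, where 7.98% of all genes rose and 15.0% fell (median 0.06). On day 5 Npc1l1 measured 93.4 ± 26.1 RPKM in DMSO and 56.2 ± 9.27 with atRA (SD, n = 2 cultures), with no overlap of libraries, and fell by 0.70 (limma adjusted p = 0.016), while Abcg5 and Abcg8 rose. On day 3 it rose by 0.89 (adjusted p = 1.6e-03), as they did.

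Related transporters did not share one direction. Of 18 further ABCA and ABCG genes, 5 were tested. With RXRi 4 rose, where 30.1% of all tested genes rose and 42.8% fell over the days. Abca7 rose by 1.29, Abca2 by 0.73, Abca12 by 0.70 and Abca3 by 0.67. Abca12 was low, with a median of 0.0742 RPKM and a highest value of 1.53 over the libraries. A gene so close to the filter of 1 RPKM can be tested through its high groups alone, which favours a difference. Abcg2, the apical xenobiotic exporter, fell by 1.76 (limma adjusted p of each of these 5 at most 2.3e-10). With atRA Abcg2 rose by 0.66 and Abca3 by 0.16, and Abca2 fell by 0.12, where 7.98% of all tested genes rose and 15.0% fell over the days. Insig1, which retains the sterol-sensing SREBP complex in the endoplasmic reticulum, fell by 1.10 with RXRi (limma adjusted p = 4.5e-07). Of 7 enzymes that form or clear oxysterols, 4 were tested. With RXRi the sterol 27-hydroxylase gene Cyp27a1 rose by 1.43, Hsd3b7 rose by 0.41, and the sulfotransferase gene Sult2b1 fell by 1.24, and with atRA Sult2b1 fell by 0.51.

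**Figure D4:**
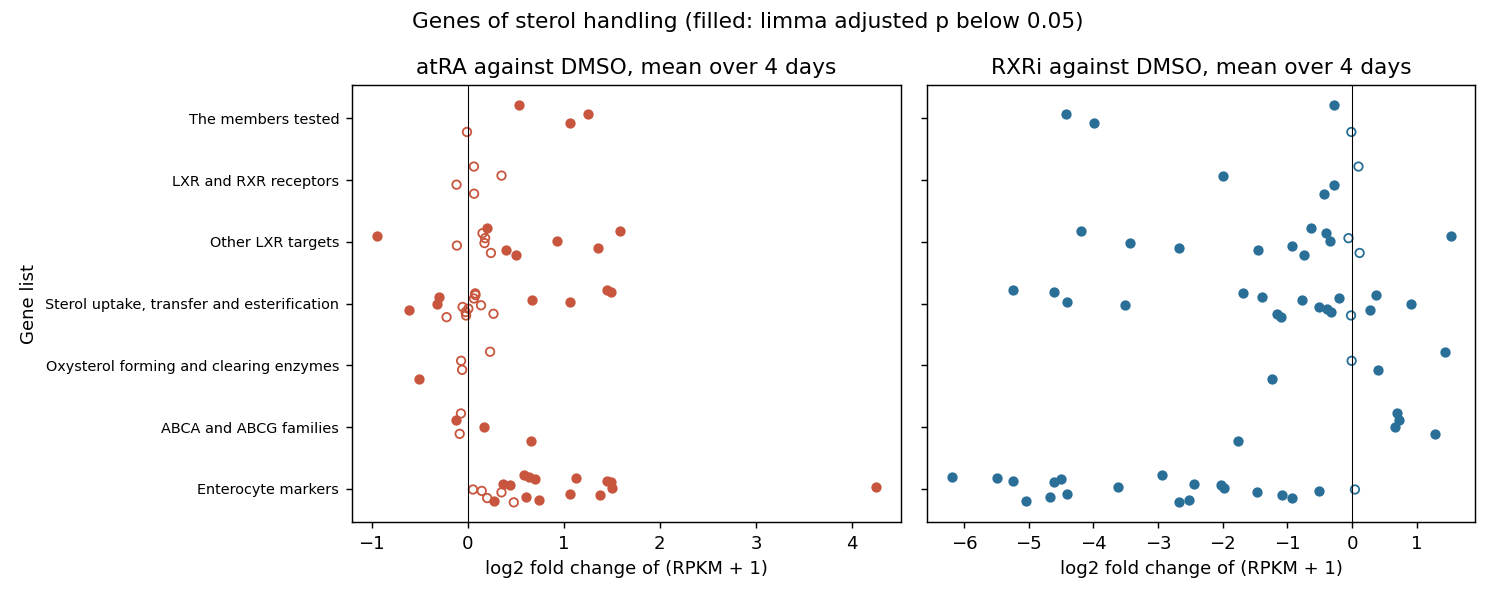
Log2 fold change of (RPKM + 1) against DMSO, as the mean over days 1, 3, 4 and 5, of the tested members and of each tested gene on 6 lists, for atRA (left) and RXRi (right), on different scales. Filled points passed limma at an adjusted p of 0.05. With RXRi 19 of 20 enterocyte markers and 13 of 17 sterol uptake genes lie below 0 and passed, where 42.8% of all tested genes fell.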

How the data were processed

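Messenger RNA libraries of mouse intestinal organoids were sequenced by the submitters. Per the submitters' processing notes, reads were processed with bcl2fastq 2.17 and STAR 2.5.2b on mm10. The sources used here do not give the counting tool, annotation or strand setting. The values deposited by the authors are RPKM per gene.

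Every value above 0 was a whole multiple of the worth of 1 read (100% within 0.001 reads), so depths and reads were recovered. The shallow library was left out. Duplicates were averaged per culture, reading the prep number in the library names as the culture. Group means ± SD are over the 2 cultures. Culture numbers pair the groups, since the same 2 mice gave them. Same-numbered cultures deviated from their group means together with r between -0.317 and 0.759 (median 0.149 across 78 group pairs, 47 above 0.1).

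The main test was limma 3.58.1 in R 4.3.3 (trend, robust) on log2(RPKM + 1), with all 13 groups in 1 fit, 13 residual degrees of freedom, two-sided, Benjamini-Hochberg adjustment over the 12443 genes that reached 1 RPKM in 4 or more libraries (11673 left out), and a threshold of 0.05. Fold changes on this scale understate those of low genes. Limma voom on reads (14636 genes with at least 100 reads in all) was added after seeing the data. The scripts were tested on simulated data. Ratios of read rates carry exact 95% intervals, which cover counting error only.

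All members are described. From lists of at most 10 measured genes any gene could be named, and from longer lists up to 4 per drug by smallest p in the mean over days. The 5 genes of highest correlation with each member were named. The members and lists were chosen with earlier results of these data known. Some genes of these pathways are not reported here.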

Additional observations from a re-analysis of the deposited data

Results flagged for a closer look

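In 3 of 60 gene and group pairs examined, 1 library stood apart from the other 3 of its group, where chance alone flags about 1 in 20 groups. All 3 lie in RXRi groups and rest on a few reads. Abca1 on day 4 was at 0.0040 RPKM in 1 library, from 1 read, and at 0 in the others. Abcg1 on day 5 was at 0.0232 RPKM in 1 library, from 3 reads, and at 0 in the others. Abcg5 on day 5 was at 0.121 RPKM in 1 library, from 6 reads, against 0.0598 to 0.0696 in the others.

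The difference between RXRi and DMSO for the sterol pump changed between days, mostly through the rise in DMSO. Day 5 minus day 1 was -3.48 for Abcg5 and -3.38 for Abcg8, and day 5 minus day 3 was -2.17 and -2.05, each by an interaction term in limma (adjusted p = 2.4e-07, 3.0e-08, 7.6e-05 and 1.7e-05).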

How the results depend on the processing

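No member's direction was reversed for a called value under the alternatives run. Uncalled, the atRA effect on Abca1 for day 5 minus day 3 changed sign. It was 0.32 in the main fit, -0.51 with a pseudocount of 0.1 and -1.85 in limma voom on reads. With a pseudocount of 5, Abca1 with RXRi over the days was -0.063 (adjusted p = 0.087), and with one of 0.1 it was -1.39, since the pseudocount sets the scale of low values. For Abcg5 from day 0 to day 5 of DMSO, keeping the shallow library gave 0.70 (adjusted p = 0.070), and leaving out 1 culture at a time gave 0.53 to 0.87. Abcg8 in that comparison passed with median-of-ratios scaling (0.58). That scaling moved counts over all genes: higher and lower calls went from 2333 and 6353 to 4082 and 3606 for day 5 against day 0, from 2557 and 4273 to 3445 and 3176 for day 4 against day 3, from 262 and 166 to 349 and 70 for day 5 against day 4, from 993 and 1861 to 1300 and 1250 for atRA over the days, from 446 and 915 to 664 and 367 for atRA on day 4, and from 2739 and 4600 to 3650 and 3701 for RXRi on day 4.

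With the culture number as a replicate block, Abcg5 over the days was 1.25 with atRA and -4.43 with RXRi, and no member's call changed. Depth limits Abca1, Abcg1 and Mylip, which rest on a few reads in many groups. The planned edgeR and DESeq2 fits were not run, because the table holds RPKM.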
